A study of Homo sapiens with 6 samples.

Results

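Tropomodulins and tropomyosins are proteins that help to set how long an actin filament is and what else may bind along it. The family was taken here as 9 genes, TMOD1, TMOD2, TMOD3, TMOD4, LMOD1, TPM1, TPM2, TPM3 and TPM4, and 8 of them were measured among 18417 genes. A gene was measured where the platform's gene table gave at least 1 probe set with exactly 1 gene symbol, and for each gene the probe set was chosen by the highest mean level over the 6 arrays. TPM3 had no such probe set and was not analysed here. The arrays came from IMR90, a line of human lung fibroblasts, either left untreated (control, 3 samples) or given a single dose of 10 ng/mL recombinant human (rh) oncostatin M, a relative of interleukin-6 whose receptor activates JAK kinases and STAT3 (3 samples, 1 array each). All samples are of the same cell line, the time between the dose and the harvest was not stated in the labels, and neither was whether replicates were separate cultures. P-values therefore cover the spread between these 6 samples only, and that spread may be technical. Levels are log2 expression as deposited, a change is the oncostatin M mean minus the control mean in log2 units, given with its standard error (SE), and a gene is called where its adjusted p in limma, over all 18417 genes, is under 0.05. The family was proposed with the rise of TMOD1 and the fall of TPM1 on these arrays already known, so those changes are given as descriptions. The number of arrays limits the precision.

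An actin filament has a fast-growing barbed end and a slow-growing pointed end. Tropomodulins cap the pointed end and slow the loss and gain of actin there, and they hold on best where tropomyosin runs along the filament. Leiomodins such as LMOD1 are relatives of the tropomodulins that start new filaments. Tropomyosins are coiled-coil dimers that join head to tail along the filament and govern the access of myosin, cofilin and other proteins. Each tropomyosin gene makes several proteins through alternative promoters and splicing, in muscle and in non-muscle cells, and a value for a whole gene does not separate them. Fibroblasts use tropomyosins in their contractile stress fibres.

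The 250 bases before an annotated start are shown for the genes that moved, TMOD1 and TPM1, and for TPM4. The TPM4 window shown holds the only CArG box, the site bound by serum response factor, found in the searched windows. They come from RefSeq on GRCh38.p14, where all 9 genes matched, with 14 such windows in all, and each of the windows shown reads on the plus strand. Capitals mark matches to a searched motif. TMOD1 has 2 annotated starts with windows of very different composition, the upstream of them 30.4% G and C and the other 83.2%. The only TPM1 window lies inside the gene, which spans 63042747 to 63071915, and so precedes an internal start. The TPM3 windows lie inside their gene too. The outer starts of TPM1 and TPM3 were not searched.
TMOD1, chr9:97500930-97501179: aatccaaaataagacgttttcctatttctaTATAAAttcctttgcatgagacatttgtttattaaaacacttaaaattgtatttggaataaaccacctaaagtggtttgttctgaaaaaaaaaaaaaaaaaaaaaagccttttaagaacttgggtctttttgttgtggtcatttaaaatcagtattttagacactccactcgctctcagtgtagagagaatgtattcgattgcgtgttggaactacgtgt
TMOD1, chr9:97501416-97501665: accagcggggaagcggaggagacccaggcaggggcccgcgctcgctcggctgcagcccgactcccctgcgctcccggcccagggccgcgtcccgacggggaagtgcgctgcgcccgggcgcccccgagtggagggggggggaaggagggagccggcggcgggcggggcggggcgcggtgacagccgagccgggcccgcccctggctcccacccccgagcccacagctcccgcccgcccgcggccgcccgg
TPM1, chr15:63048239-63048488: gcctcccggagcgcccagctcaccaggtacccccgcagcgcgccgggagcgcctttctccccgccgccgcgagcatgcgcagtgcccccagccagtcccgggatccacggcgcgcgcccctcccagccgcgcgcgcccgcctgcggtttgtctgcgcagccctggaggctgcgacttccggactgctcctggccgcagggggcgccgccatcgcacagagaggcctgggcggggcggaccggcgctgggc
TPM4, chr19:16067288-16067537: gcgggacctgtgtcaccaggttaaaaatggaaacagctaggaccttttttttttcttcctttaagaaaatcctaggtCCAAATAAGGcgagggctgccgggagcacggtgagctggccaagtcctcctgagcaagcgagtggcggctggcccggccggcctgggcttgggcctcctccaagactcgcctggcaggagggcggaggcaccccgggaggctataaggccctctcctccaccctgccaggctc
Motifs were searched on both strands. TTCNNNGAA, the form bound by STAT factors, was found in 1 of the 14 windows, that of TMOD3, where TTCGGGGAA begins 198 bases before the start, and in 6.57% of all 35093 RefSeq windows of the same length. The CArG box was found in 1 window, at 173 bases before the upstream start of TPM4 (1.16% of all windows). CATTCC, known as the MCAT element, was found in that of LMOD1 (11.9% of all), TATAAA in the upstream window of TMOD1 (10.7% of all), and TGANTCA, the AP-1 site, in none of the 14 (6.57% of all). No match overlapped another. Neither TMOD1 window holds TTCNNNGAA, and the TPM1 window, before an internal start, holds none of the 5 motifs. This says only that these letters are not in these windows.

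TMOD1, a capping protein best known from red blood cells, heart and lens, rose after oncostatin M, TPM1 fell slightly, and 6 of the 8 measured genes did not pass the test. TMOD1 stood at 9.01, 9.18 and 9.21 on control arrays 1 to 3 and at 10.98, 11.05 and 11.15 on oncostatin M arrays 1 to 3. The groups lie far apart, with every treated array above every control array. The means were 9.13 ± 0.11 and 11.06 ± 0.08 (SD, n = 3), a change of 1.93 (SE 0.08, 95% interval 1.73 to 2.12) or 3.80-fold, which ranked at position 9 among the changes of all genes. The call held with any 1 array left out, and the change then lay between 1.86 and 1.96.

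**Figure D1:**
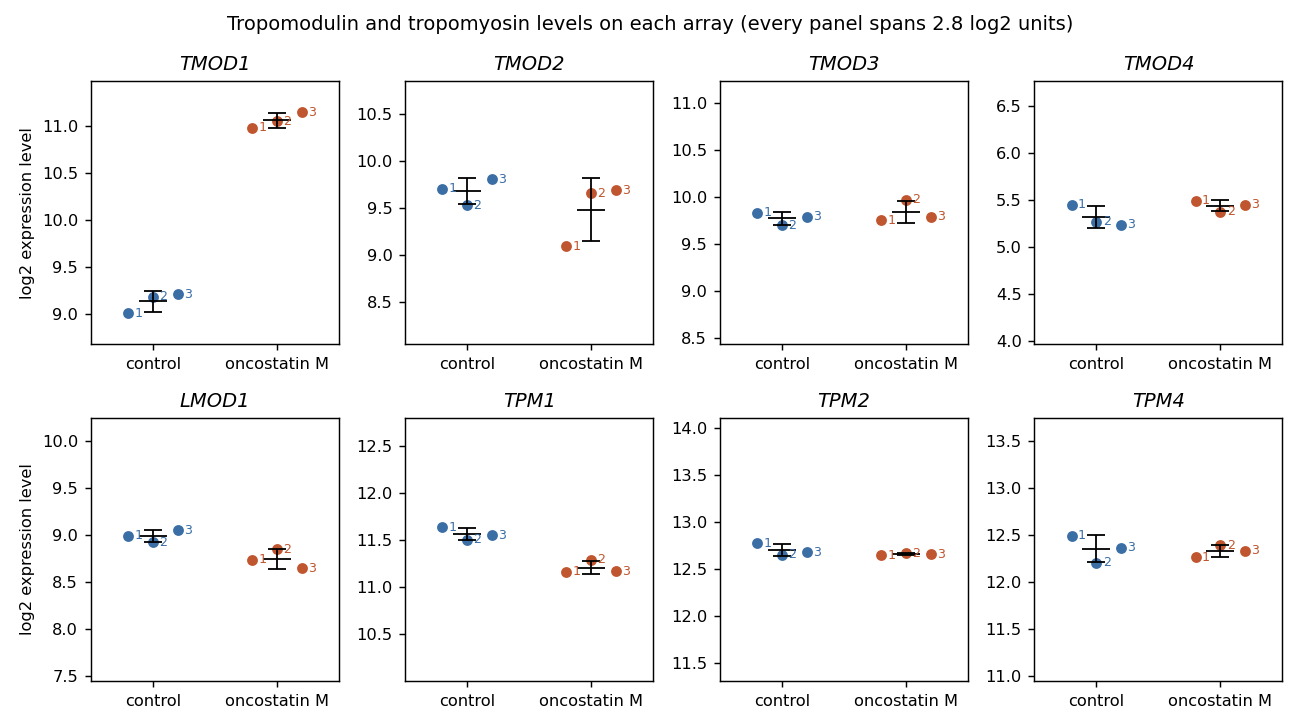
Log2 expression level (y axis) of the 8 measured genes on control arrays (blue) and oncostatin M arrays (orange); points are arrays with their replicate number, bars are mean ± SD over 3 arrays, and every panel spans the same height. TMOD1 moves from near 9.1 to near 11.1, TPM1 and LMOD1 shift down without overlap, and the other genes overlap between groups.

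None of the other tropomodulins was called. TMOD3, the capping protein found in most cell types, stood at 9.83, 9.70 and 9.79 in controls and at 9.75, 9.97 and 9.79 after oncostatin M. Its groups overlap, with a change of 0.065 (SE 0.08, 95% interval -0.13 to 0.26, adjusted p = 0.928). TMOD2, known mainly from neurons, stood at 9.70, 9.53 and 9.80 in controls and at 9.09, 9.65 and 9.69 after oncostatin M. A single array, oncostatin M 1, lies below the rest, and the other treated arrays fall inside the range of the controls. The change of TMOD2 was -0.20 (SE 0.16, adjusted p = 0.812) with that array and -0.0068 (SE 0.09) without it. TMOD2 and TMOD3 are neighbours on chromosome 15, and neither was called.

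TMOD4, the tropomodulin of skeletal muscle, was not told apart from silent genes. It stood at 5.45, 5.27 and 5.24 in controls and at 5.50, 5.38 and 5.45 after oncostatin M, and its groups overlap (change 0.12, SE 0.08, adjusted p = 0.745). The files hold no detection calls, so 429 genes that fibroblasts are not known to use, those of olfactory receptors and keratin-associated proteins, served as a reference for silence. Not all of them had low values: a control mean of 10.67, that of CNN1, lay above only 99.8% of them. The percentile of 95 of these genes was 6.69 in controls and 6.71 after oncostatin M. The control mean of TMOD4 (5.32) lay above 74.6% of them, so its size of change cannot be read. The other 7 measured genes lay above that bound in both groups.

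Within the same arrays, the difference between TMOD1 and the other tropomodulins above that bound was larger after oncostatin M. Its change was 2.13 (SE 0.19) against TMOD2 and 1.86 (SE 0.12) against TMOD3. These SEs come from the pooled spread of the differences, without limma's moderation, and cannot be compared with those of single genes. These differences follow from the rise for which TMOD1 was noticed and carry no test.

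LMOD1, the leiomodin of smooth muscle, was lower on every treated array, and did not pass the test. It stood at 8.998, 8.93 and 9.05 in controls and at 8.74, 8.85 and 8.65 after oncostatin M. The groups do not overlap, but the change was small (-0.24, SE 0.08, 95% interval -0.43 to -0.06, adjusted p = 0.219). Groups that do not overlap were common on these arrays: 10.6% of all genes were apart with the treated arrays lower and 7.43% with them higher. LMOD1 passed under 1 of 15 alternative settings, array weights (-0.29, adjusted p = 0.0398). The related LMOD2 and LMOD3 had control means of 5.19 and 3.79, below the bound of silent genes.

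Among the tropomyosins only TPM1 was called, and the call is weak. TPM1 stood at 11.64, 11.50 and 11.55 in controls and at 11.16, 11.29 and 11.17 after oncostatin M. All treated arrays lie below all controls, by a much smaller step than that of TMOD1. The means were 11.56 ± 0.07 and 11.21 ± 0.07 (SD, n = 3), a change of -0.36 (SE 0.07, 95% interval -0.53 to -0.19) or 1.28-fold lower, with an adjusted p of 0.0425. The call was lost with any 1 array left out (adjusted p from 0.0562 without oncostatin M 1 to 0.197 without control 1), while the change stayed between -0.40 and -0.32.

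TPM2 and TPM4 differed by less than their spread. TPM2, also known as beta-tropomyosin, stood at 12.77, 12.65 and 12.67 in controls and at 12.64, 12.66 and 12.65 after oncostatin M. Its treated arrays lie close together (SD 0.0092, n = 3), near the lowest control, and the change was -0.044 (SE 0.07, 95% interval -0.20 to 0.11, adjusted p = 0.95). TPM4, which makes a tropomyosin of non-muscle cells, stood at 12.49, 12.20 and 12.36 in controls and at 12.26, 12.39 and 12.33 after oncostatin M (change -0.025, SE 0.09, 95% interval -0.23 to 0.18, adjusted p = 0.981). Its sign turned positive under quantile normalization (0.0043), without control 1 (0.043) and without oncostatin M 1 (0.0086).

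TPM4 has another probe set, listed for other transcripts of the gene. It stood at 10.26, 10.34 and 10.21 in controls and at 10.25, 10.20 and 10.19 after oncostatin M, again with overlapping groups (change -0.058, SE 0.07, adjusted p = 0.926 in the fit over every probe set). Neither probe set of TPM4 moved beyond its spread. Tropomyosin genes are closely related in sequence, so their probes can share signal, which was not tested.

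TPM1 was also compared with the other tropomyosins on the same arrays. The difference TPM1 minus TPM2 changed by -0.31 (SE 0.04) and TPM1 minus TPM4 by -0.33 (SE 0.05), and in both pairs all treated arrays lay below all controls. These SEs too are not from limma and cannot be compared with those of single genes. These differences follow from the fall for which TPM1 was noticed and carry no test.

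**Figure D2:**
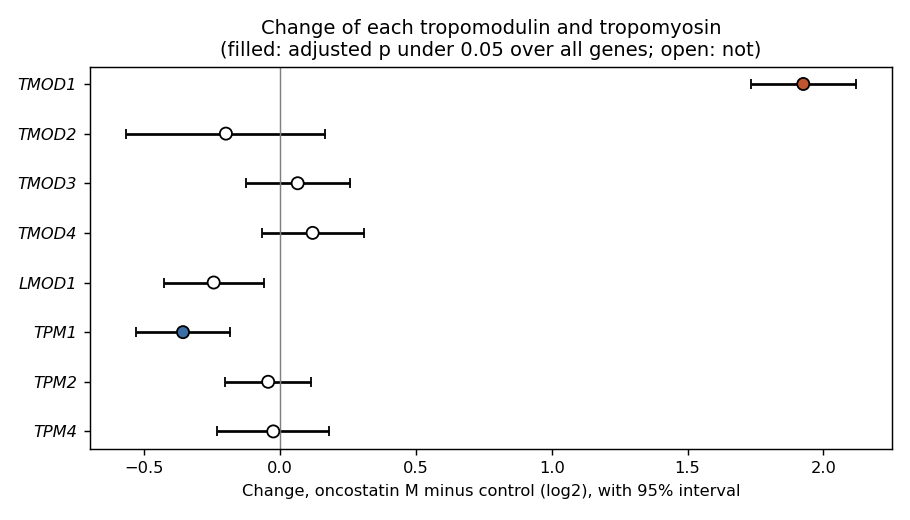
Change of each gene (oncostatin M minus control, log2, x axis) with its 95% interval from limma; filled points passed an adjusted p under 0.05 over all genes. TMOD1 stands at 1.93, TPM1 at -0.36, and the intervals of TMOD2, TMOD3, TMOD4, TPM2 and TPM4 include 0.

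Of the 8 genes, 2 were called, against 3.42% of all genes: 1 higher, against 1.72%, and 1 lower, against 1.7%. In 3 of the 8 the groups did not overlap, against 18% of all genes. Since the family was proposed with these results in view, nothing is read from these shares. Their median change was -0.034, beside 0.0006 over all genes, with 3 genes above 0 and 5 below.

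Small shifts downward were common among genes of high level. Genes with a mean above 11, where TPM1, TPM2 and TPM4 lie, numbered 762 and had a median change of -0.025, with 61.7% below 0 and 23.1% apart with the treated arrays lower. Without oncostatin M 1, the array farthest from its group, that median was 0.0014, while TPM1 differed by -0.34. Between 8 and 10, where LMOD1 lies, the median was -0.031 and 16.9% of 5157 genes were apart with the treated arrays lower. Without oncostatin M 1 the median of this band was 0.0007, while LMOD1 differed by -0.24. Neither TPM1 nor LMOD1 was called in that fit.

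**Figure D3:**
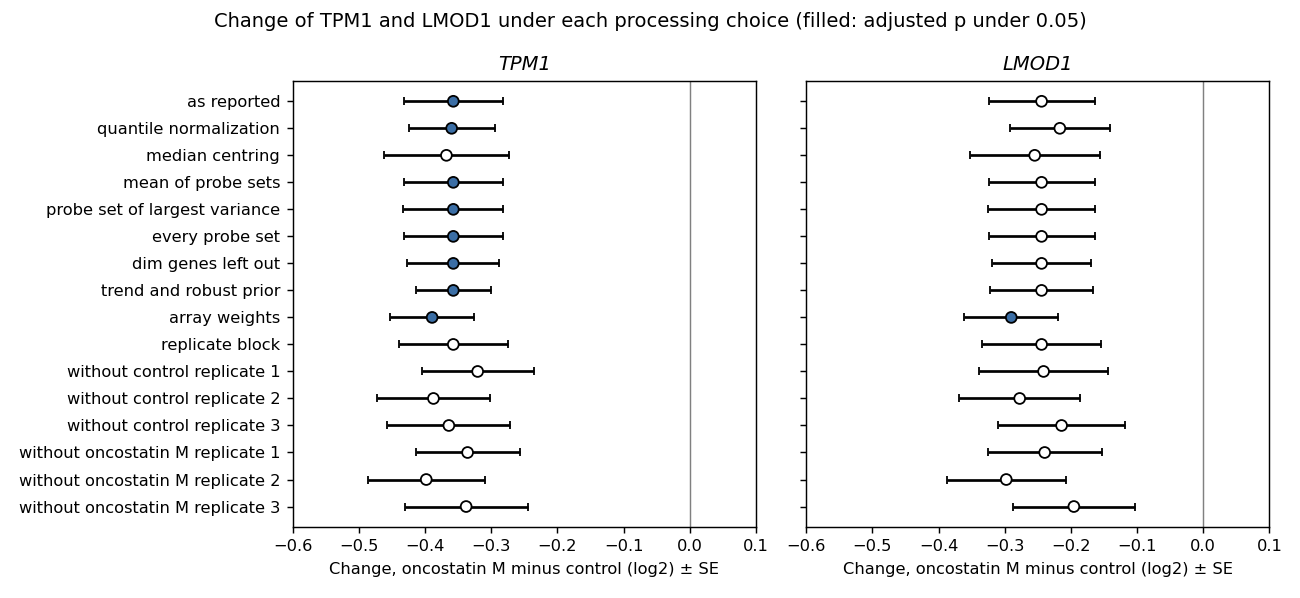
Change ± SE (log2, x axis) of TPM1 and LMOD1 as reported and under 15 alternative settings (y axis); filled points passed an adjusted p under 0.05. TPM1 stays between -0.40 and -0.32 and passes in 7 of the 15, and LMOD1 stays between -0.30 and -0.20 and passes in 1. Each has only 1 probe set, so the settings on the choice of probe set could not alter its values.

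Markers of the labelled cell type were in place. All 10 fibroblast markers, such as COL1A1, DCN and VIM, lay above the bound of silent genes in both groups, and none of 5 epithelial and 3 leukocyte markers did. Of the fibroblast markers, LUM and PDGFRA were called higher (0.75 and 0.39) and PDGFRB lower (-0.37). Of 4 endothelial markers TEK lay above the bound, with a change of 0.47 that did not pass (adjusted p = 0.182) and groups that do not overlap. Of 7 striated muscle markers MYOG lay above it, at 6.84 in controls, and of 4 erythroid markers KLF1 did, while HBB, the beta chain of haemoglobin, stood at 5.32. Erythroid markers, which bear on TMOD1 as a red cell protein, gave no call (limma, also unadjusted), and their summed level ran from 24.2 to 25.0 in controls and from 24.3 to 25.5 after oncostatin M. Of 5 smooth muscle markers 4 lay above the bound, MYH11 being below it, and 2 were called lower. Their summed level was 46.2 to 46.9 in controls and 45.1 to 45.6 after oncostatin M, lower as TPM1 and LMOD1 were. Its part in those results was not tested. MYH11, ACTG2 and the called SMTN and CNN1 also count among the actin-filament genes below, so they are no separate result. DES, the remaining marker, differed by 0.016. In bulk samples fewer cells of a type and less RNA per cell cannot be told apart.

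Other genes of the actin filament lay mostly a little below 0. Of 126 measured genes in 10 lists, 9 were called lower (1.7% of all genes were) and 2 higher (1.72%). The lists were chosen with earlier results of these data known, so nothing is read from these shares or from those below. Of the 126, 94 lay below 0 (49.8% of all genes), 52 were apart with the treated arrays lower (10.6% of all genes) and 6 with them higher (7.43%). Genes of higher level were more often lower in general: between 8 and 10, 61.0% of all genes lay below 0 and 16.9% were apart lower, beside 26 and 17 of 33 of these genes. Between 10 and 11 the shares were 63.2% and 20.3%, beside 25 and 15 of 27, and above 11 they were 61.7% and 23.1%, beside 28 and 15 of 30. Between 6 and 8 they were 43.3% and 7.5%, beside 12 and 3 of 21. Below 6 they were 41.0% and 3.6%, beside 3 and 2 of 15, where the median of these genes was above 0 (0.051). The median change of the 126 was -0.094, beside 0.0006 over all genes. Without oncostatin M 1 it was -0.078, beside -0.0142 over all genes, a background not matched by level. In that fit the medians of these genes were -0.114 between 8 and 10, -0.130 between 10 and 11 and -0.071 above 11. Over all genes they were 0.0007, -0.0006 and 0.0014 in these bands. Between 6 and 8 the median was -0.0475, beside -0.0233 over all genes, and below 6 it was 0.0025, beside -0.0224. Without control 1 none of the 126 was called lower, and without control 2, control 3 or oncostatin M 2 the count was 2, 4 and 3. Over all genes, 105, 127, 136 and 179 were called lower in these fits, against 314 as reported. The count among the 126 was 9 without oncostatin M 1 (332 of all genes) and 8 without oncostatin M 3 (234).

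Proteins that cap or sever filaments gave no other call in the upward direction. Of 15 measured, 2 were called lower and none higher, with 4 above 0 and 11 below (median -0.036). SVIL, which encodes the membrane-linked actin binder supervillin, fell by 0.56 (SE 0.09, adjusted p = 0.0125), and GSN, the severing protein gelsolin, fell by 0.34 (SE 0.07, adjusted p = 0.0377). SVIL lost its call without control 1 (adjusted p = 0.0867) and in 1 other fit, and GSN in 5 of 6 fits, with up to 0.165 without control 3. The barbed-end capping subunits CAPZA1, CAPZA2 and CAPZB differed by -0.036, -0.021 and -0.019.

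Proteins that bind along the filament beside tropomyosin were lower where they passed. Of 17 measured, 3 were lower and none higher (median -0.13). PDLIM5, which links alpha-actinin to kinases, fell by 0.50 (SE 0.07, adjusted p = 0.0087), CNN1, calponin, by 0.50 (adjusted p = 0.0315) and SMTN, smoothelin, by 0.43 (adjusted p = 0.033). PDLIM5 lost its call without control 1 (0.0534), CNN1 in 4 of 6 fits (up to 0.159 without control 1) and SMTN in 4 (up to 0.14 without control 3). None of 6 actins passed (limma; 3 were lower at an unadjusted p under 0.05, as were 6.66% of all genes). ACTA2, smooth muscle actin, differed by -0.32 (adjusted p = 0.257, but 0.0259 with array weights), while ACTB, the main non-muscle actin, differed by -0.0022. None of 7 troponins passed either, also unadjusted, and TNNI3, which had the smallest adjusted p (0.807), lay below the bound of silent genes in both groups, so no size is given.

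Formins, which add actin at the barbed end, opposite the end that tropomodulins cap, held 4 of the 9 calls in the downward direction. Of 22 formins and other nucleators measured, 4 were lower and none higher (median -0.10). FMN1 stood at 8.72, 8.78 and 8.99 in controls and at 7.21, 7.81 and 8.16 after oncostatin M. The treated arrays are all lower but spread widely, with oncostatin M 1 the lowest, and the change was -1.10 (SE 0.21, adjusted p = 0.0303), or -0.84 without that array. FMN1 has another probe set, below the bound of silent genes, with a change of 0.14, and the mean of both gave -0.48 and no call (adjusted p = 0.063). DIAPH2 fell by 0.79 (adjusted p = 0.0293) and FHOD1 by 0.58 (adjusted p = 0.0304), and each of these 3 lost its call in 4 of 6 fits, with up to 0.156 for DIAPH2 without control 1. The fourth, FMNL3, fell by 0.56 (adjusted p = 0.00685; 0.0502 without control 1). It lies outside the naming rule and was chosen after its values were seen.

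Filament turnover, myosin II, the spectrin skeleton and splicing regulators held no call (limma), though some of these genes passed under alternative settings given below. At an unadjusted p under 0.05, reached by 6.66% of all genes in the lower and 4.98% in the higher direction, 5 of 13 genes of filament turnover were lower, 3 of 12 of myosin II, 3 of 15 of the spectrin skeleton and 1 of 10 splicing regulators, with 0, 0, 1 and 2 higher. Of 13 genes of filament turnover CAP2 came closest (change -0.39, adjusted p = 0.0541), of 12 genes of myosin II MYH9 (-0.26, adjusted p = 0.108) and of 15 genes of the spectrin skeleton, to which TMOD1 binds in red cells, SPTBN1 (-0.25, adjusted p = 0.109). Of 10 splicing regulators of muscle-type exons, which choose between tropomyosin isoforms in other systems, MBNL2 came closest (0.21, adjusted p = 0.197).

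**Figure D4:**
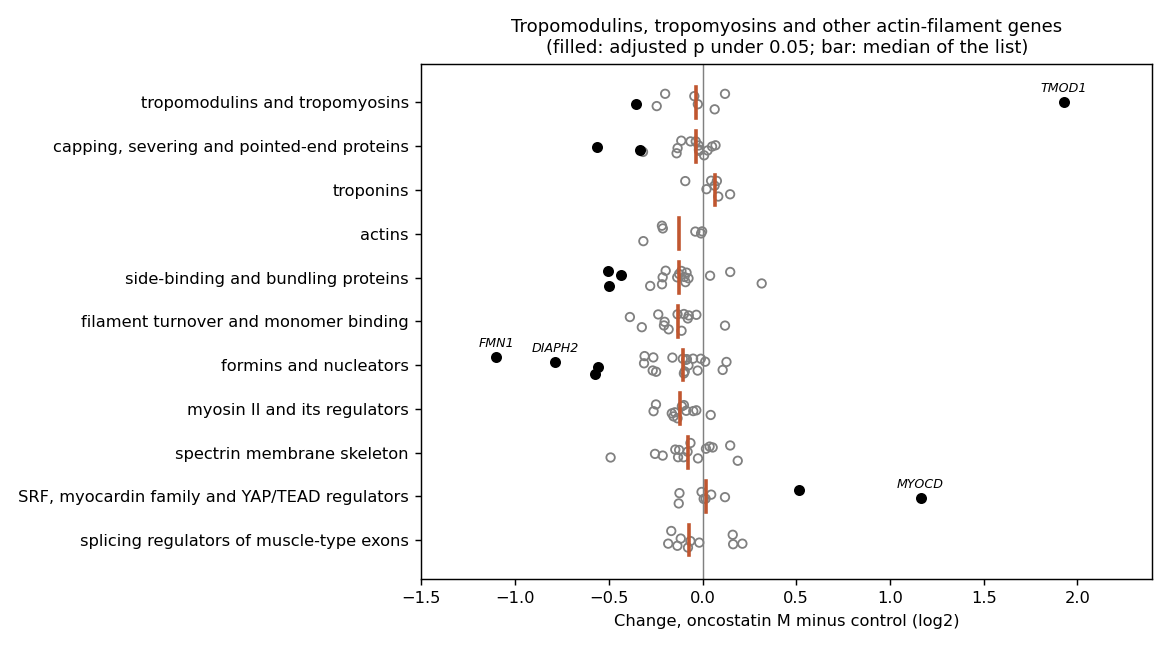
Change (log2, x axis) of the 8 tropomodulins and tropomyosins and of 126 other actin-filament genes by list (y axis); each point is a gene, filled where the adjusted p was under 0.05, and the orange bar is the median of the list. TMOD1 at 1.93 and MYOCD at 1.16 stand to the right of all other genes shown, and FMN1 at -1.10, on the probe set used, to the left.

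Regulators of muscle-type transcription held the calls in the upward direction. Of 9 measured, 2 were higher and none lower (median 0.017). MYOCD, myocardin, the partner of serum response factor in smooth muscle genes, stood at 8.08, 8.22 and 8.24 in controls and at 9.38, 9.47 and 9.18 after oncostatin M. All treated arrays are well above all controls, and the change was 1.16 (SE 0.09, adjusted p = 0.000561), which kept its call with any 1 array left out (up to 0.0105). TEAD4, a TEA domain factor, rose by 0.51 (adjusted p = 0.0311) and lost its call in 4 of 6 fits (up to 0.164 without control 1). SRF itself differed by -0.13 (adjusted p = 0.708), and YAP1 by -0.0052.

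The genes most like TMOD1 over the 6 arrays were found by the root mean square difference between profiles, each centred on its own mean. The 5 closest were SOCS3 (0.094), which binds and restrains JAK kinases, DEPP1 (0.10), ARHGAP28 (0.17), SLC6A15 (0.17), an amino acid transporter, and PLPP3 (0.18), a lipid phosphatase. Their changes were 2.06, 1.96, 1.81, 1.63 and 1.57. The closest to TPM1 were EHD4 (0.028), BTG3 (0.037), NETO2 (0.039), DACT1 (0.040) and BACH1 (0.041), with changes of -0.37, -0.33, -0.42, -0.33 and -0.41. Such likeness rests mainly on the step between the groups and is a description over 6 arrays.

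**Figure D5:**
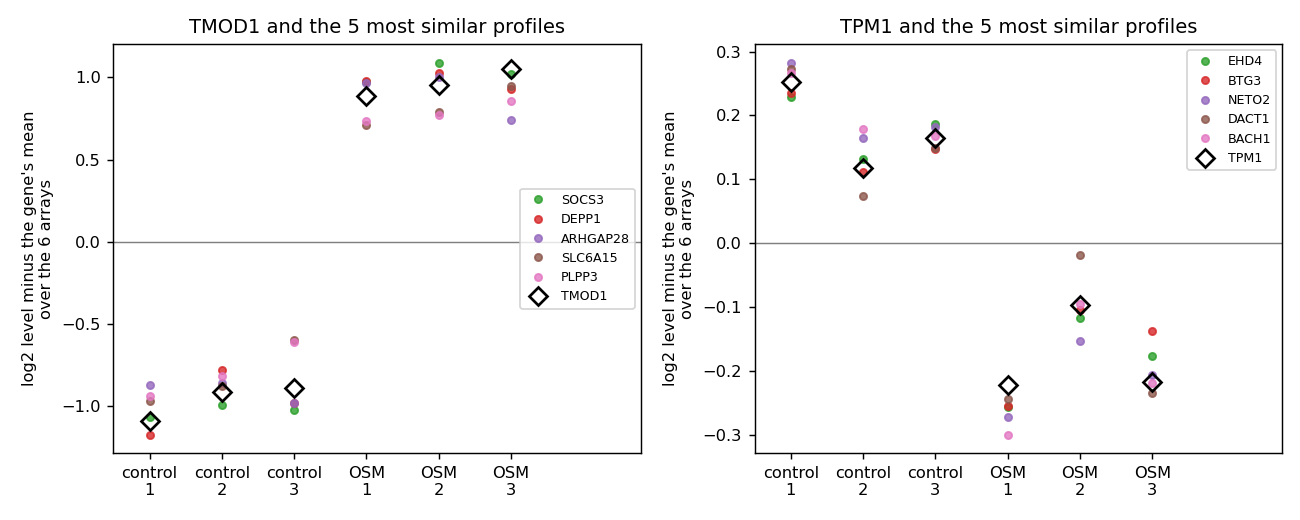
Log2 level minus the gene's mean over the 6 arrays (y axis) by array (x axis; OSM is oncostatin M), for TMOD1 (left) and TPM1 (right, diamonds) with the 5 most similar profiles (dots). The y axes differ: the step between the groups is 1.93 for TMOD1 and -0.36 for TPM1.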

How the data were processed

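Total RNA of 6 IMR90 samples was extracted with an RNeasy kit and biotin-labelled with Ambion's kit, as stated in the labels. The authors deposited log2 values, 1 per probe set and array, which came, per the submitters' processing notes, from RMA in Affymetrix Expression Console 1.1. RMA as a method corrects background, aligns the arrays' distributions and summarises probes, and tends to shrink changes at low level. The build behind the probe sets was not stated.

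Of 33297 probe sets, 19460 had 1 gene symbol, 1754 several and 12083 none. The model had the group as its only term (limma 3.58.1 in R 4.3.3, moderated by eBayes; two-sided; adjusted by Benjamini-Hochberg over 18417 genes; plots by matplotlib 3.10.9). On simulated arrays with 200 of 18417 genes changed, 49.6% of changes of 0.5, 89.4% of 1 and 99.4% of 2 were recovered, and 3.92% of calls were false. These shares hold for the simulated setting only. They are not the shares recovered or false in the reported fit, where 630 genes were called. Array correlations lay between 0.9875 and 0.9978, no columns were identical, and weights were 0.226 for oncostatin M 1 and 0.723 to 3.22 for the others.

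The genes and lists were chosen with earlier results of these data known. All 9 genes are named, in each list up to 3 called genes with the largest change (otherwise that with the smallest adjusted p), and the 5 profiles most like TMOD1 and TPM1. Alternatives covered normalization between arrays, choice of probe set, dim genes, a replicate block, array weights, the variance prior, leaving out each array and a threshold of 0.01.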

Additional observations from a re-analysis of the deposited data

How the results depend on the processing

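TMOD1 was called higher under all 15 alternative settings and TPM1 lower under 7. Each of them has only 1 probe set, so the settings on the choice of probe set could not alter their values. Passing under those settings adds no support. The alternatives run on the 126 other actin-filament genes were chosen after seeing the data. The cause of the differences was not tested. With median centring no gene of the family was called lower, and at a threshold of 0.01 none was either, with 175 genes called higher and 112 lower in all and 1 and 2 among the 126. With array weights 2 of the family were called lower. In all, 667 genes were then called higher and 610 lower, and 15 of the 126 were lower. With the trend and robust prior 403 genes were called higher and 461 lower in all, and 3 of the 126 were higher and 19 lower. With 1 array left out, 156 to 400 genes were called higher and 105 to 332 lower (as reported, 316 and 314), 0 genes of the family were called lower in each of the 6 fits, and the 126 had 1 to 2 higher and 0 to 9 lower. The change of TMOD3 ran from -0.0010 (without oncostatin M 2) to 0.11 and that of TPM4 from -0.099 to 0.043 (0.0086 without oncostatin M 1), and under quantile normalization TPM4 was at 0.0043.

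Replicate numbers are shared between groups, but deviations of same-numbered arrays correlated at 0.063, -0.46 and 0.51, so the numbers were not taken to pair the samples; 3 of 6 arrays correlated best with their own number. With the replicate block 255 genes were called higher and 223 lower in all, 0 of the family lower (TPM1 at an adjusted p of 0.123), and 1 of the 126 higher. Among other named genes, calls were lost by CNN1 under quantile normalization, by GSN, SMTN and FHOD1 with median centring, and by GSN, SMTN and TEAD4 with the block (adjusted p up to 0.0993). Calls were also gained in limma. CAP2 was called lower under quantile normalization, without dim genes, with the trend and robust prior and with array weights (adjusted p 0.014 to 0.0315). With array weights ACTA2 (0.0259) and MYH9 (0.0139) were called lower. With the trend and robust prior MYH9 (0.012) and SPTBN1 (0.0263) were called lower and MBNL2 higher (0.0361). Signals near silent genes limit what can be said of TMOD4.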
